A study of Caenorhabditis elegans with 12 samples.

Results

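The genes described here are the fbxa, fbxb and fbxc genes of Caenorhabditis elegans, named for the F-box domain of the proteins they encode. Members were the genes with such a symbol that had at least 10 counts in at least 3 of 12 libraries. Of 332 genes with such a symbol, 114 passed, out of 45132 genes in the table and 12989 genes that met the same count rule. The members were 98 of 176 fbxa genes, 4 of 106 fbxb genes and 12 of 50 fbxc genes. The other 218 symbols together held 2173 counts, against 90061 counts for the members, and 73 of them had 0 counts in every library.

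All libraries came from polyA RNA of whole day 1 adult worms of the strain glp-4(bn2), which forms almost no germline when raised at the restrictive temperature. RNA interference (RNAi) was given through bacteria, and 4 groups of 3 libraries each received prp-19 RNAi with atp-2 RNAi, prp-19 RNAi, the control L4440 with atp-2 RNAi, or the control L4440. The empty vector L4440 serves as the control, PRP-19 is a splicing factor, and ATP-2 belongs to the mitochondrial ATP synthase. The labels do not say whether replicates were separate cultures, so the p-values measure the spread between these libraries, which may be technical. In whole worms, fewer cells of a type and less RNA per cell cannot be told apart.

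F-box proteins are the substrate receptors of SCF ubiquitin ligases, in which a Skp1-related protein joins the F-box protein to a cullin scaffold and a RING protein. The F-box binds the Skp1-related protein, and the rest of the F-box protein recruits the substrate that is to be ubiquitinated. C. elegans carries a large expansion of such genes, many of them in tandem on chromosome arms, and most members have no described role. Many FBXA proteins also carry an FTH domain, and FBXA-158 and FBXA-75 are known as receptors of a CUL-6 ligase that acts in the intracellular pathogen response and in thermotolerance.

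Library totals lay between 6731808 and 8802767 counts. The mRNA of atp-2 averaged 503.8 CPM in libraries labelled prp-19+atp-2 against 1013 CPM in those labelled prp-19, and 266.5 CPM in atp-2 RNAi libraries against 1617 CPM in control libraries. CPM here means counts scaled to a common library size by TMM (trimmed mean of M values). The mRNA of prp-19 was on average not lower in libraries with its label. It averaged 29.4 ± 11.3 CPM in libraries labelled prp-19+atp-2, 54.3 ± 25.8 CPM in libraries labelled prp-19, 27.8 ± 0.208 CPM in atp-2 RNAi libraries and 26.4 ± 1.95 CPM in control libraries (SD, n = 3 each). In the edgeR test described below, its prp-19 effect was 1.04 on the log2 scale without atp-2 RNAi (adjusted p = 0.0401). That call was lost in 9 of 20 alternative fits. With atp-2 RNAi the effect was 0.07 (adjusted p = 0.887). The groups are therefore named by their labels throughout. Genes with a count numbered 18606 to 19307 in libraries labelled prp-19+atp-2, 18889 to 20005 in libraries labelled prp-19, 17172 to 17447 in atp-2 RNAi libraries and 16320 to 16645 in control libraries. Germline markers summed to 165.6 to 180.0 CPM, 174.2 to 200.3 CPM, 82.4 to 87.9 CPM and 51.1 to 67.8 CPM in the same order of groups, and none of the 19 was at 0 in all libraries. Most of each sum came from glh-1, which averaged 125.1, 143.6, 46.9 and 33.3 CPM in the same order. The part of these markers in the results below was not tested.

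Members were mostly low in abundance. The median member had 36.9 counts per library, against 106 counts per library for the median of all 12850 genes that passed the filter on low counts. That filter kept 109 members. The 5 left out were fbxc-50, fbxa-169, fbxa-142, fbxb-72 and fbxa-77. At least 10 counts in every library were present for 72 members. Taken separately, 12 members met the count rule only among the 6 libraries with a prp-19 label, 7 only among the 6 without it, and 93 in both. The rule favoured a difference in members that met it on 1 side only. Of the 12, 9 were fitted, and 3 of these were called higher and 0 lower without atp-2 RNAi, and 4 and 0 with it. Of the 7, 6 were fitted, and 3 were called lower and 0 higher in either comparison. Such members are described below without a test, and the counts of calls cover the members that passed and not the whole family. The last members inside the rule, with exactly 3 libraries at 10 counts or more, were fbxa-142, fbxa-169, fbxa-77, fbxc-19 and fbxc-50, with 66 to 89 counts in all. Just outside it, with exactly 2 such libraries, were fbxa-210, fbxa-47, fbxc-28, fbxc-37 and fbxc-45, with 56 to 80 counts in all.

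The gene models of the members were short, with 819 to 2988 bases of exons, a median of 1118 bases, and 1 to 9 introns with a median of 3. Of the 114 members, 112 were annotated as protein coding and fbxa-20 and fbxa-21 as pseudogenes. Chromosome III held 50 members, chromosome V 32, chromosome II 22, chromosome X 5, chromosome IV 3 and chromosome I 2. All but 1 of the 50 members on chromosome III were fbxa genes, whereas 10 of the 12 fbxc members lay on chromosome II. Exons of 21 members overlapped those of another gene, 16 of them on the other strand. Neither the strand setting nor the treatment of reads that match several places is given in the sources used here, so values of overlapping genes and of near-identical paralogs are uncertain.

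A few members carried much of the family's RNA. Per kilobase of exon and averaged over the 12 libraries, the highest were fbxa-60 at 89.0 CPM, fbxc-58 at 49.5 CPM, fbxa-163 at 36.3 CPM and fbxa-59 at 28.6 CPM. The fbxc genes fbxc-54 and fbxc-52 followed in their family at 11.8 and 10.7 CPM per kilobase. The 3 highest fbxb genes were far lower, fbxb-7 at 1.35, fbxb-38 at 1.32 and fbxb-24 at 0.943 CPM per kilobase. Summed over all members, the level was 1066 to 1158 CPM in libraries labelled prp-19+atp-2, 970.9 to 1139 CPM in libraries labelled prp-19, 793.1 to 804.6 CPM in atp-2 RNAi libraries and 775.3 to 836.3 CPM in control libraries. Both groups with a prp-19 label lay above both groups without it in every library. Without fbxa-60, fbxa-163 and fbxc-58 the sums were 812.7 to 876.1 CPM, 749.9 to 845.6 CPM, 657.8 to 662.8 CPM and 630.1 to 685.9 CPM in the same order, and the groups stayed apart in the same way.

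The sums of the smaller families rest on few genes. The fbxc sum was 130.1 to 141.9 CPM in libraries labelled prp-19+atp-2, 98.3 to 170.2 CPM in libraries labelled prp-19, 59.4 to 66.9 CPM in atp-2 RNAi libraries and 50.2 to 54.9 CPM in control libraries. The fbxb sum was 2.73 to 4.14 CPM, 1.99 to 3.75 CPM, 5.57 to 6.29 CPM and 4.08 to 6.88 CPM in the same order. Most of the fbxc difference came from fbxc-58. Without this gene the fbxc sum averaged 51.05 ± 0.967 CPM in libraries labelled prp-19+atp-2, 53.6 ± 3.13 CPM in libraries labelled prp-19, 46.5 ± 3.31 CPM in atp-2 RNAi libraries and 33.6 ± 2.17 CPM in control libraries (SD, n = 3 each). Libraries with a prp-19 label stayed above those without it, but closely where atp-2 RNAi was given. Of the 4 fbxb genes, fbxb-7 reached 10 counts in 5 libraries and fbxb-72 in 4, all without a prp-19 label. The rule thus favoured a lower fbxb sum in libraries with that label. Without fbxb-7 the fbxb sum was 2.08 to 3.78 CPM, 1.41 to 2.996 CPM, 3.13 to 3.67 CPM and 2.84 to 3.98 CPM, and groups with and without the label overlapped. That sum still held fbxb-72. No test was made on these sums.

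**Figure D1:**
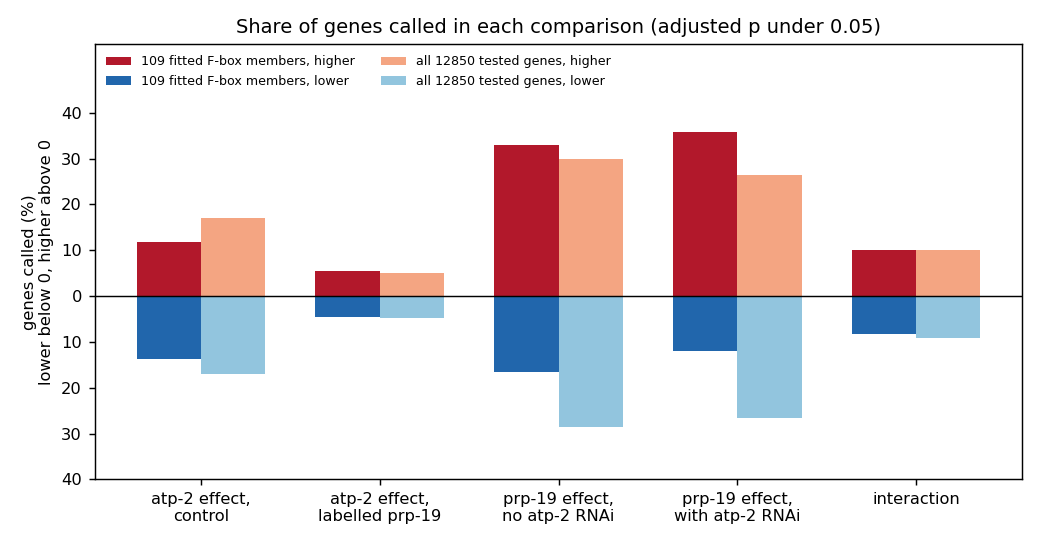
Share of genes called in each comparison, in percent, with higher calls drawn above 0 and lower calls below it. Dark bars stand for the 109 fitted members and pale bars for all 12850 genes tested; for both prp-19 effects the members' lower calls, 16.5% and 11.9%, are fewer than those of all genes, 28.5% and 26.5%.

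The first comparison asked how the members differ between worms raised on prp-19 RNAi and on control RNAi. Between libraries labelled prp-19 and control libraries, 36 members rose and 18 fell, or 33.0% and 16.5% of the 109 fitted. A call means a Benjamini-Hochberg adjusted p under 0.05 in edgeR's quasi-likelihood test across all genes. Of all genes, 58.5% were called, 30% higher and 28.5% lower. The members' share of lower calls was therefore under that background, and their share of higher calls was near it. Their median log2 fold change was 0.295, against 0.0637 over all genes. At least 2-fold were 18 of the rises and 7 of the falls, together 25 of the 109 fitted. Of all 12850 genes, 2835, or 22.1%, had a call of that size. By family, 31 fbxa genes rose and 16 fell, 5 fbxc genes rose and 0 fell, and 0 fbxb genes rose and 2 fell (1 rose and 1 fell with library totals as the scale). Among these, fbxc-44, fbxa-192 and fbxa-30 (higher) and fbxa-176, fbxa-42 and fbxb-7 (lower) met the count rule only on their high side. The split depends on the scaling. Library totals gave 68 higher and 6 lower members, and totals outside the vitellogenin genes gave 53 and 11, while the median of all genes stood at 0.544 and 0.335 under these scales.

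The strongest rise belonged to fbxa-163, on chromosome II from 1609252 to 1610730 in the WBcel235 build. This gene had 81.4, 79.8 and 66.5 CPM in libraries labelled prp-19+atp-2, 91.8, 83.8 and 90.6 CPM in libraries labelled prp-19, 10.5, 12.3 and 10.4 CPM in atp-2 RNAi libraries, and 3.66, 3.72 and 4.59 CPM in control libraries. The 4 groups did not overlap, and the atp-2 RNAi libraries lay above the control libraries. The log2 fold change was 4.47 (SE 0.13, adjusted p = 3.36e-15) without atp-2 RNAi, that is 22.2-fold, and 2.77 (SE 0.10, adjusted p = 1.24e-13) with it.

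The second was fbxa-114, on chromosome V from 20201616 to 20202874. It had 21.6, 18.6 and 19.5 CPM in libraries labelled prp-19+atp-2, 22.5, 20.9 and 24.7 CPM in libraries labelled prp-19, 4.92, 5.10 and 4.22 CPM in atp-2 RNAi libraries, and 2.39, 1.95 and 1.41 CPM in control libraries. The group means fell in the same order as for fbxa-163, but here the 2 groups with a prp-19 label overlapped. The prp-19 effect was 3.54 on the log2 scale without atp-2 RNAi (SE 0.18, adjusted p = 4.83e-12) and 2.06 with it (SE 0.14, adjusted p = 2.86e-10).

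Another fbxa gene, fbxa-50, on chromosome III from 1287299 to 1288523, rose by almost the same amount with and without atp-2 RNAi. Its values were 16.7, 17.8 and 19.95 CPM in libraries labelled prp-19+atp-2, 13.4, 13.2 and 14.7 CPM in libraries labelled prp-19, 2.63, 2.61 and 1.64 CPM in atp-2 RNAi libraries, and 2.07, 1.95 and 1.76 CPM in control libraries. All 4 groups were separate except the 2 without a prp-19 label, which overlapped. The log2 fold changes were 2.82 (SE 0.19, adjusted p = 3.4e-10) without and 2.96 (SE 0.16, adjusted p = 1.82e-11) with atp-2 RNAi.

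The most abundant fbxc gene, fbxc-58, lies on chromosome IV from 9371508 to 9373206. It had 88.1, 90.03 and 78.8 CPM in libraries labelled prp-19+atp-2, 115.1, 110.9 and 48.2 CPM in libraries labelled prp-19, 15.2, 16.4 and 17.3 CPM in atp-2 RNAi libraries, and 16.9, 19.5 and 19.04 CPM in control libraries. Replicate 3 labelled prp-19 was far below its group, yet above every library without that label. Its log2 fold changes were 2.31 (SE 0.32, adjusted p = 0.000212) without and 2.40 (SE 0.31, adjusted p = 0.000155) with atp-2 RNAi.

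The CUL-6 receptor gene fbxa-158, on chromosome II from 1619814 to 1621280, had 10.3, 10.4 and 9.06 CPM in libraries labelled prp-19+atp-2, 14.4, 13.5 and 9.62 CPM in libraries labelled prp-19, 5.14, 3.20 and 3.40 CPM in atp-2 RNAi libraries, and 2.71, 2.48 and 2.12 CPM in control libraries. It was higher in each library with a prp-19 label than in any without. The log2 fold changes were 2.36 (SE 0.23, adjusted p = 3.98e-08) without and 1.32 (SE 0.20, adjusted p = 1.26e-05) with atp-2 RNAi. The other known receptor gene of that ligase, fbxa-75 on chromosome III, had 2, 0 and 1 counts, 1, 0 and 1 counts, 0, 0 and 0 counts, and 2, 0 and 0 counts in the same order of groups, so no difference was detectable at this depth.

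One of the low members, fbxa-192 on chromosome V, reached 10 counts in 6 libraries with a prp-19 label and in 1 without it, so its difference helped to choose it and is given without a test. It had 11, 16 and 13 counts in libraries labelled prp-19+atp-2, 16, 20 and 13 counts in libraries labelled prp-19, 10, 3 and 4 counts in atp-2 RNAi libraries, and 2, 1 and 1 counts in control libraries. The log2 fold change of 2.99 without atp-2 RNAi (SE 0.54) rests on those few control counts, and with atp-2 RNAi it was 1.17.

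**Figure D2:**
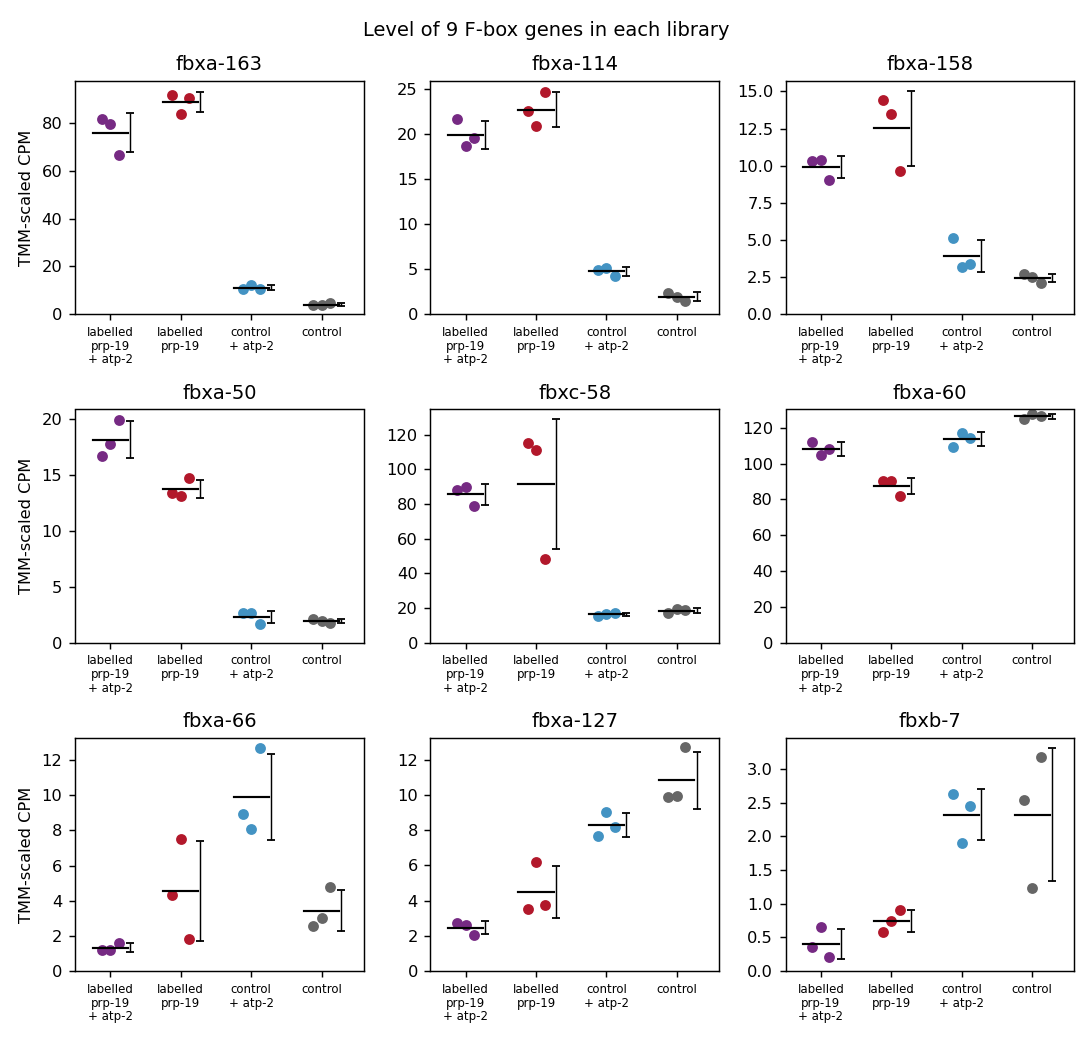
TMM-scaled CPM of 9 F-box genes in each of the 12 libraries; points are libraries, thick bars group means and thin bars ± SD (n = 3). fbxa-163, fbxa-114, fbxa-158, fbxa-50 and fbxc-58 are higher in every library with a prp-19 label than in any without, and fbxa-127 and fbxb-7 are lower.

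On the lower side, fbxa-42 on chromosome III reached 10 counts in the 3 control libraries and in 1 library labelled prp-19. It became a member through its control level, so its difference is a description. It had 1.06, 0.781 and 0.647 CPM in libraries labelled prp-19+atp-2, 0.586, 1.07 and 0 CPM in libraries labelled prp-19, 0.915, 0.593 and 1.09 CPM in atp-2 RNAi libraries, and 3.82, 2.83 and 1.94 CPM in control libraries. The control group stood above the other 3 groups, which overlapped. The log2 fold change of fbxa-42 between libraries labelled prp-19 and control libraries was -2.28 (SE 0.50), and with atp-2 RNAi it was -0.05.

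The gene fbxb-7 on chromosome V, the highest of its family per length, had 0.355, 0.651 and 0.216 CPM in libraries labelled prp-19+atp-2, 0.586, 0.749 and 0.910 CPM in libraries labelled prp-19, 2.63, 1.90 and 2.45 CPM in atp-2 RNAi libraries, and 2.55, 1.24 and 3.17 CPM in control libraries. Every library with a prp-19 label was below every library without it, and the gene is a member only through the libraries without it. The log2 fold changes, given as a description, were -1.63 (SE 0.40) without and -2.51 (SE 0.43) with atp-2 RNAi.

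Lower by a like factor in both comparisons was fbxa-6, near the left end of chromosome III at 1219 to 3097. It had 2.96, 2.47 and 1.51 CPM in libraries labelled prp-19+atp-2, 2.58, 2.78 and 2.73 CPM in libraries labelled prp-19, 5.60, 8.53 and 7.49 CPM in atp-2 RNAi libraries, and 5.25, 7.09 and 7.94 CPM in control libraries. The groups with and without a prp-19 label did not overlap. Its log2 fold changes were -1.31 (adjusted p = 0.000164) without and -1.64 (adjusted p = 1.08e-05) with atp-2 RNAi.

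The second fbxb gene by level, fbxb-38 on chromosome II, had 2.01, 1.04 and 2.27 CPM in libraries labelled prp-19+atp-2, 0.234, 1.18 and 0.650 CPM in libraries labelled prp-19, 1.14, 1.30 and 1.09 CPM in atp-2 RNAi libraries, and 1.27, 1.77 and 2.29 CPM in control libraries. Libraries labelled prp-19 were below control libraries, while the groups with atp-2 RNAi overlapped. It fell without atp-2 RNAi by 1.31 on the log2 scale (SE 0.47, adjusted p = 0.0222), a call that was lost without control replicate 3 or prp-19 replicate 1 and with either scaling by totals. The third fbxb gene, fbxb-24, overlaps the gene faah-4 on the other strand and was not called in any comparison.

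The most abundant member of all, fbxa-60 on chromosome III, had 112.2, 104.5 and 108.2 CPM in libraries labelled prp-19+atp-2, 90.2, 90.2 and 82.1 CPM in libraries labelled prp-19, 109.4, 117.3 and 114.1 CPM in atp-2 RNAi libraries, and 124.6, 127.6 and 126.8 CPM in control libraries. Replicates were close, with libraries labelled prp-19 lowest and control libraries highest. Without atp-2 RNAi the log2 fold change was -0.53 (SE 0.07, adjusted p = 2.82e-06), and with library totals it was -0.04 (adjusted p = 0.714). Its neighbour fbxa-59 went the other way, with 80.0, 73.8 and 61.4 CPM, 51.8, 60.03 and 56.9 CPM, 42.1, 42.2 and 45.6 CPM, and 39.3, 40.6 and 45.1 CPM in the same order of groups. The prp-19 effect on fbxa-59 was 0.43 (adjusted p = 0.00108) without and 0.73 (adjusted p = 2.9e-06) with atp-2 RNAi.

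The same question was put in worms that also received atp-2 RNAi. Between libraries labelled prp-19+atp-2 and atp-2 RNAi libraries, 39 members rose and 13 fell, or 35.8% and 11.9% of those fitted. Of all genes, 53% were called, 26.5% in each direction, and the median was 0.193 for the members and 0.0269 for all genes. A change of at least 2-fold was called in 21 members that rose and 9 that fell, together 30 of the 109 fitted. Of all 12850 genes it was called in 2283, or 17.8%. Of the fbxa genes 35 rose and 11 fell, of the fbxc genes 4 rose and 1 fell, and of the fbxb genes 0 rose and 1 fell. Among these calls, some genes met the count rule only on the side where they were high. They were fbxc-44, fbxc-19, fbxa-192 and fbxa-30 (higher) and fbxc-7, fbxa-176 and fbxb-7 (lower), so the rule favoured their calls. These 2 prp-19 effects share no library. Both called 37 members, which are 68.5% of those called without and 71.2% of those called with atp-2 RNAi, and of these 29 were higher in both, 8 lower in both and 0 opposite. Over all genes, 5215 were called in both, or 69.3% and 76.6% of the calls, and 4980 of them, or 95.5%, had the same direction. The members' shares in common were near or under those of all genes.

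The 8 members that fell in both were fbxa-176, fbxa-88, fbxa-189, fbxa-190, fbxa-73, fbxa-127, fbxb-7 and fbxa-6, of which fbxa-176 and fbxb-7 are members only through libraries without a prp-19 label. Of the others, fbxa-127 on chromosome V had 2.72, 2.60 and 2.05 CPM in libraries labelled prp-19+atp-2, 3.52, 6.21 and 3.77 CPM in libraries labelled prp-19, 7.66, 9.01 and 8.17 CPM in atp-2 RNAi libraries, and 9.87, 9.92 and 12.7 CPM in control libraries. The 4 groups did not overlap, with libraries labelled prp-19+atp-2 lowest and control libraries highest. Its prp-19 effects were -1.24 without (adjusted p = 2.87e-05) and -1.75 with atp-2 RNAi (adjusted p = 1.83e-06). For fbxa-73 on chromosome III they were -1.16 (adjusted p = 0.00629, lost with library totals) and -1.85 (adjusted p = 0.000162).

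**Figure D3:**
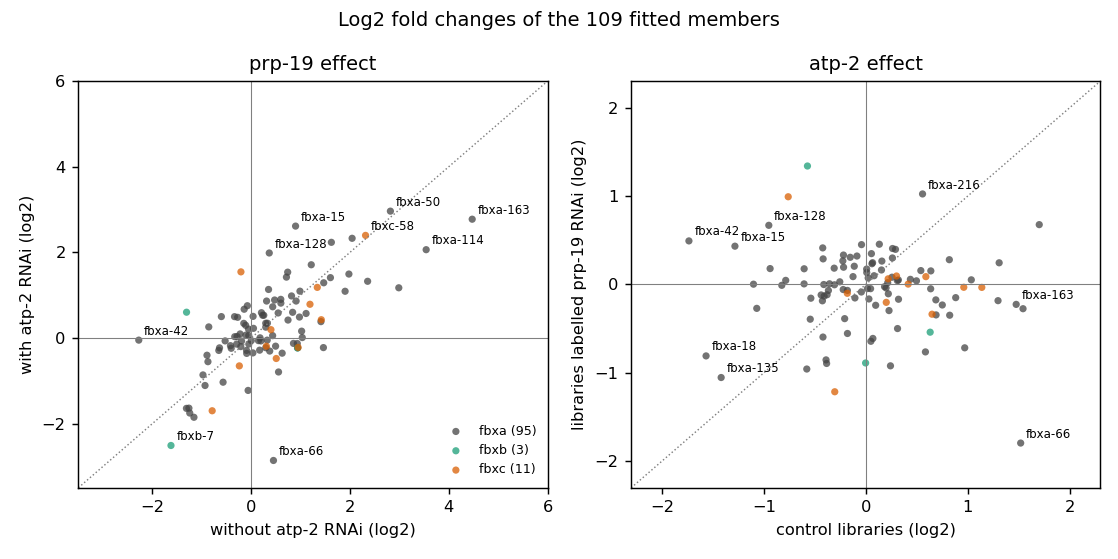
Log2 fold changes of the 109 fitted members, coloured by family, for the effect of the prp-19 label among libraries with atp-2 RNAi (vertical) and among those without it (horizontal) on the left, and for the atp-2 effect in libraries labelled prp-19 (vertical) against control libraries (horizontal) on the right. The dotted lines mark equal effects; fbxa-163 lies at 2.77 and 4.47 in the left panel, and fbxa-66 at -1.79 and 1.52 in the right panel.

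A few members differed between libraries labelled prp-19+atp-2 and atp-2 RNAi libraries more than between the other pair. In fbxa-15, on chromosome III from 1318934 to 1321661, the values were 4.14, 7.42 and 4.53 CPM in libraries labelled prp-19+atp-2, 4.92, 4.28 and 2.47 CPM in libraries labelled prp-19, 0.915, 1.07 and 0.545 CPM in atp-2 RNAi libraries, and 2.07, 1.95 and 2.29 CPM in control libraries. The 2 groups with a prp-19 label overlapped, and the atp-2 RNAi libraries were lowest. Its exons overlap those of fbxa-19 on the other strand. Its log2 fold change in the presence of atp-2 RNAi was 2.61 (SE 0.34, adjusted p = 2.69e-06). Without it the effect was 0.90 (SE 0.32, adjusted p = 0.023), a call lost without control replicate 1 or 2, without prp-19 replicate 1 or 2, or in DESeq2.

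The gene fbxa-128, also on chromosome III, had 7.92, 10.3 and 9.49 CPM in libraries labelled prp-19+atp-2, 6.10, 5.46 and 5.85 CPM in libraries labelled prp-19, 2.97, 2.13 and 1.77 CPM in atp-2 RNAi libraries, and 3.66, 5.67 and 4.23 CPM in control libraries. The atp-2 RNAi libraries were lowest and those labelled prp-19+atp-2 highest, with the other 2 groups overlapping between them. The prp-19 effect was 1.98 (SE 0.21, adjusted p = 1.29e-07) with and 0.36 (adjusted p = 0.143) without atp-2 RNAi.

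The opposite was seen in fbxa-66, on chromosome III from 2309792 to 2314035. It had 1.18, 1.17 and 1.62 CPM in libraries labelled prp-19+atp-2, 4.34, 7.49 and 1.82 CPM in libraries labelled prp-19, 8.92, 8.06 and 12.7 CPM in atp-2 RNAi libraries, and 2.55, 3.01 and 4.76 CPM in control libraries. The prp-19+atp-2 libraries were lowest and the atp-2 RNAi libraries highest, and the replicates labelled prp-19 were widely spread. With atp-2 RNAi the prp-19 effect on fbxa-66 was -2.86 (SE 0.43, adjusted p = 0.000113), and without it 0.45 (adjusted p = 0.398).

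Many members sit in tandem. With a gap of at most 50000 bp between neighbouring members and at least 4 members, 5 arrays held 53 members. The largest, on chromosome III from 1236015 to 1384252, held 26 fbxa members, 25 of them fitted. There 13 rose, 2 fell and 10 were not called between libraries labelled prp-19 and control libraries, and 14 rose, 1 fell and 10 were not called between those labelled prp-19+atp-2 and atp-2 RNAi libraries. Of all genes, 30% rose and 28.5% fell without atp-2 RNAi, and 26.5% went each way with it. Without atp-2 RNAi, the array's split was 18 higher and 0 lower with library totals and 10 and 2 in DESeq2. The array's median log2 fold changes were 0.55 and 0.58, against 0.0637 and 0.0269 over all genes. Within it the neighbours fbxa-30, fbxa-37, fbxa-50, fbxa-36 and fbxa-35 rose in both comparisons, a run singled out after its values were seen.

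In that run, fbxa-37 had 34.5, 34.2 and 32.7 CPM in libraries labelled prp-19+atp-2, 36.1, 36.5 and 28.1 CPM in libraries labelled prp-19, 7.66, 6.64 and 7.22 CPM in atp-2 RNAi libraries, and 9.87, 11.2 and 11.8 CPM in control libraries. Each group without a prp-19 label was apart from all others, and the 2 groups with it overlapped. The prp-19 effects on fbxa-37 were 1.62 (adjusted p = 1.57e-09) without and 2.23 (adjusted p = 2.14e-11) with atp-2 RNAi. The effects on fbxa-36 were 2.04 and 2.33, and those on fbxa-30, a member only through libraries with a prp-19 label, were 1.90 and 1.09. Those on fbxa-35, which lies within the antisense gene anr-53, were 1.98 and 1.49. Reads may be shared among these paralogs, and whether they were cannot be told from the table.

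**Figure D4:**
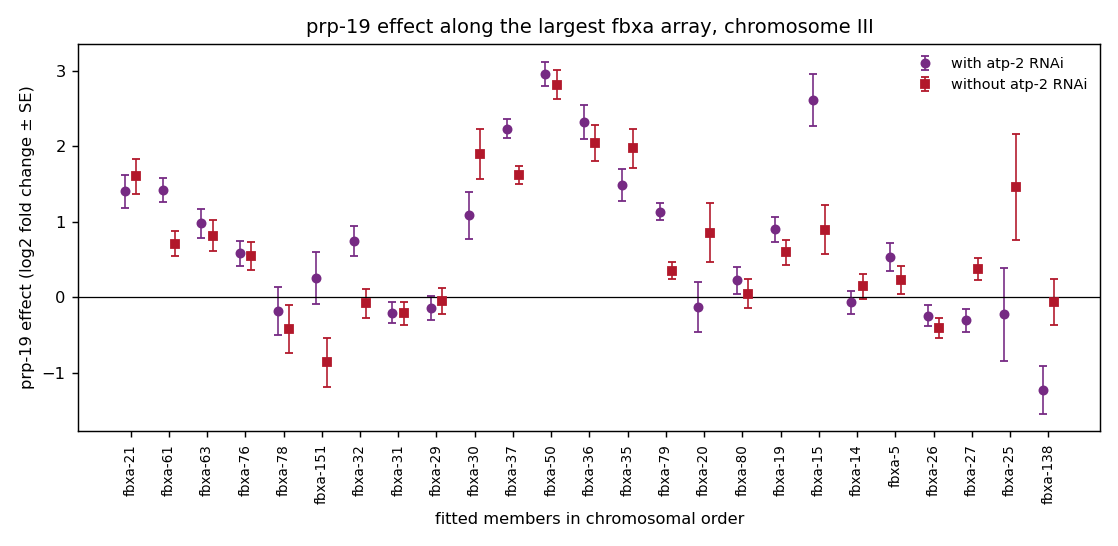
Log2 fold change ± SE of the prp-19 effect for the 25 fitted members of the largest array on chromosome III, in chromosomal order, with circles for libraries with atp-2 RNAi and squares for libraries without it. The run from fbxa-30 to fbxa-35 lies above 1 in both comparisons, and fbxa-15 lies at 2.61 with and 0.90 without atp-2 RNAi.

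The other arrays were mixed, and the shares of all genes called are those given for the largest array. The array on chromosome II from 1609252 to 1621280 held fbxa-163, fbxa-164, fbxa-165, fbxa-166 and fbxa-158, and its 2 outer members rose in both comparisons while the 3 between them were not called in either. The array from 933422 to 963833 on chromosome III held 8 members including fbxa-60 and fbxa-59, of which 2 rose and 1 fell without and 4 rose with atp-2 RNAi. One of them, fbxa-55, had 26, 26.2 and 24.0 CPM in libraries labelled prp-19+atp-2, 17, 18.4 and 22.6 CPM in libraries labelled prp-19, 12.2, 11.7 and 11.7 CPM in atp-2 RNAi libraries, and 9.07, 10.8 and 9.35 CPM in control libraries. The 4 groups did not overlap, and its prp-19 effects were 0.99 (adjusted p = 3e-06) and 1.09 (adjusted p = 1.87e-07). On chromosome V from 16125794 to 16144666, 4 of 5 members were fitted, and 1 rose and 1 fell in each comparison. Of the 9 members between 2224672 and 2314035 on chromosome III, among them fbxa-42, fbxa-73 and fbxa-66, 0 rose and 3 fell without and 2 rose and 2 fell with atp-2 RNAi.

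Effects of atp-2 RNAi were fewer. Between atp-2 RNAi libraries and control libraries, 13 members rose and 15 fell, or 25.7% of those fitted, against 34.1% of all genes (17% higher and 17.1% lower). Changes of at least 2-fold were called in 13 of the 109 fitted members, against 1081 of all 12850 genes, or 8.41%. The count rule was met only with atp-2 RNAi by 8 members and only without it by 2. Of these, fbxa-166 and fbxa-218 (higher) and fbxa-42 (lower) were called, each at least 2-fold, so the rule favoured their calls. Library totals turned the split to 30 higher and 6 lower members, and totals outside the vitellogenin genes gave 16 and 12. By family, 10 fbxa genes rose and 15 fell (25 rose and 6 fell with library totals, 13 and 12 with totals outside the vitellogenins), and 3 fbxc genes rose and 0 fell.

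Among those that rose was fbxa-163, whose values are given above, by 1.47 on the log2 scale (SE 0.17, adjusted p = 9.75e-07). Likewise fbxa-114 rose by 1.30 (adjusted p = 0.000162) and fbxa-66 by 1.52 (SE 0.39, adjusted p = 0.00976). The gene fbxa-166 had 3.31, 3.25 and 3.02 CPM in libraries labelled prp-19+atp-2, 3.17, 1.71 and 1.04 CPM in libraries labelled prp-19, 4.12, 2.61 and 2.72 CPM in atp-2 RNAi libraries, and 1.43, 0.531 and 0.882 CPM in control libraries. It reached 10 counts in 6 libraries with atp-2 RNAi and 2 without it. Its log2 fold change between atp-2 RNAi and control libraries, where the groups did not overlap, was 1.70 (SE 0.41) as a description. The low gene fbxa-218, with 5 and 1 such libraries and 11, 13 and 11 counts in atp-2 RNAi libraries against 5, 2 and 3 counts in control libraries, had a log2 fold change of 1.31, likewise a description. The second fbxc gene by level, fbxc-54, had 15.9, 13.6 and 17.6 CPM in atp-2 RNAi libraries against 9.87, 10.98 and 10.4 CPM in control libraries. Its groups did not overlap, and it rose by 0.59 (SE 0.13, adjusted p = 0.00177).

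Among those that fell, fbxa-135 on chromosome V had 5.56, 5.98 and 3.34 CPM in libraries labelled prp-19+atp-2, 10.9, 11.9 and 7.54 CPM in libraries labelled prp-19, 5.60, 5.81 and 6.67 CPM in atp-2 RNAi libraries, and 16.7, 14.7 and 16.8 CPM in control libraries. Libraries with atp-2 RNAi were below those without it whether or not they had a prp-19 label. Its atp-2 effect was -1.05 (SE 0.20, adjusted p = 0.00171) in libraries labelled prp-19 and -1.42 (SE 0.19, adjusted p = 7.81e-06) in control libraries. The gene fbxa-18, whose exons overlap those of fbxa-88 on the other strand, had 1.89, 1.82 and 2.27 CPM, 4.57, 2.996 and 2.99 CPM, 1.14, 1.42 and 1.77 CPM, and 3.98, 4.96 and 3.88 CPM in the same order of groups. Again both groups with atp-2 RNAi were below their counterparts. It fell by 1.57 (SE 0.28, adjusted p = 0.000184) in control libraries. In libraries labelled prp-19 it fell by 0.81 (adjusted p = 0.048), a call lost when any 1 library other than prp-19 replicate 3 was left out, with library totals and in DESeq2.

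The atp-2 effect on fbxa-42 in control libraries was -1.73, again a description. Also lower after atp-2 RNAi in control libraries were fbxa-15 at -1.28 (adjusted p = 0.0265) and fbxa-128 at -0.95 (adjusted p = 0.00531). The call of fbxa-15 was lost without control replicate 1 or 3, without atp-2 replicate 1 or 3, and with library totals. In the largest array, 0 of 25 fitted members rose and 5 fell, where 17% of all genes rose and 17.1% fell. With library totals, 3 members of the array rose and 0 fell.

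In libraries labelled prp-19, atp-2 RNAi changed 11 members, 6 higher and 5 lower, or 10.1% of those fitted, against 9.77% of all genes (5.06% higher and 4.72% lower). Of these, 3 changed at least 2-fold, out of 109 fitted members, against 204 of all 12850 genes, or 1.59%. The split was 1 higher and 4 lower with library totals and 4 and 6 with totals outside the vitellogenin genes. All 11 were fbxa genes, as were 95 of the 109 fitted members. Without prp-19 replicate 3 the count was 21, with 8 higher and 13 lower, among them 1 fbxb gene and 2 fbxc genes, and without prp-19+atp-2 replicate 1, 2 or 3 it was 5, 4 and 7. Without prp-19 replicate 2 it was 7. The mRNA of atp-2 itself fell by 1.01 on the log2 scale in libraries labelled prp-19 and by 2.60 in control libraries.

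The strongest rise here was that of fbxa-216 on chromosome I, with 13.1, 8.85 and 8.30 CPM in libraries labelled prp-19+atp-2, 5.39, 5.35 and 4.03 CPM in libraries labelled prp-19, 8.003, 7.58 and 5.58 CPM in atp-2 RNAi libraries, and 4.93, 4.07 and 5.47 CPM in control libraries. Both groups with atp-2 RNAi were above their counterparts without overlap. Its atp-2 effect was 1.02 (SE 0.20, adjusted p = 0.00221) in libraries labelled prp-19 and 0.56 (adjusted p = 0.0664) in control libraries. Next came fbxa-128 at 0.67 (adjusted p = 0.019), lost without prp-19 replicate 2 or prp-19+atp-2 replicate 2 or 3 and with library totals. Smaller changes of 0.41 in fbxa-50 (adjusted p = 0.039), 0.40 in fbxa-55 (adjusted p = 0.0261) and 0.35 in fbxa-59 (adjusted p = 0.0225) followed. Each of these 3 calls was lost without prp-19 replicate 1, without prp-19+atp-2 replicate 1 or 2, with library totals and in a fit of the 6 libraries compared. Those of fbxa-50 and fbxa-55 were also lost without prp-19 replicate 2 and in DESeq2, those of fbxa-50 and fbxa-59 with totals outside the vitellogenin genes, and that of fbxa-50 without prp-19+atp-2 replicate 3.

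The largest fall was that of fbxa-66, by 1.79 on the log2 scale (SE 0.48, adjusted p = 0.0365). Its call was lost without control replicate 2, atp-2 replicate 1, prp-19 replicate 1 or 2, or any 1 of the prp-19+atp-2 replicates, and in a fit of the 6 libraries compared. The fall of fbxa-127 by 0.89 (adjusted p = 0.0248) was lost without prp-19 replicate 2 or any 1 of the prp-19+atp-2 replicates, and in the same fit of 6 libraries.

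Whether the atp-2 effect itself differed between libraries labelled prp-19 and control libraries was tested as an interaction, the first effect minus the second. It was called for 20 members, 11 higher and 9 lower, or 18.3% of those fitted, against 19.3% of all genes (10.1% higher and 9.14% lower). Among the higher calls, fbxc-19 met the count rule only through libraries labelled prp-19+atp-2. The gene fbxa-42 met it only among libraries without a prp-19 label, and only among those without atp-2 RNAi. The rule favoured both calls. A difference of at least 2-fold was called in 13 of the 109 fitted members, against 788 of all 12850 genes, or 6.13%. The split was 1 higher and 21 lower with library totals, 6 and 15 with totals outside the vitellogenin genes, and 8 and 4 in DESeq2. The mRNA of atp-2 itself had an interaction of 1.59 (adjusted p = 3.32e-08). Its log2 fold change was -1.01 in libraries labelled prp-19 and -2.60 in control libraries. The part of this unequal fall in the members' results was not tested. The gene fbxa-163 had an interaction of -1.70 (SE 0.19, adjusted p = 3.24e-06), with an atp-2 effect of -0.23 (adjusted p = 0.107) in libraries labelled prp-19 and 1.47 in control libraries. For fbxa-114 the interaction was -1.48 (SE 0.25, adjusted p = 0.000352), with atp-2 effects of -0.18 (adjusted p = 0.333) and 1.30. In fbxa-66 the interaction was -3.31 (SE 0.62, adjusted p = 0.00265), since the atp-2 effect was -1.79 in libraries labelled prp-19 and 1.52 in control libraries.

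On the other side, fbxa-128 had an interaction of 1.62 (SE 0.30, adjusted p = 0.000798), with atp-2 effects of 0.67 in libraries labelled prp-19 and -0.95 in control libraries. The interaction of fbxa-15 was 1.71 (SE 0.50, adjusted p = 0.021), lost without control replicate 3 or atp-2 replicate 3 and with library totals. That of fbxa-60 was 0.46 (SE 0.10, adjusted p = 0.00246), with an atp-2 effect of 0.31 (adjusted p = 0.00756) in libraries labelled prp-19 and -0.15 (adjusted p = 0.0985) in control libraries. With library totals the interaction of fbxa-60 was 0.11 (adjusted p = 0.568). Its atp-2 effect in libraries labelled prp-19 was also no longer called on that scale, nor in a fit of the 6 libraries compared.

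**Figure D5:**
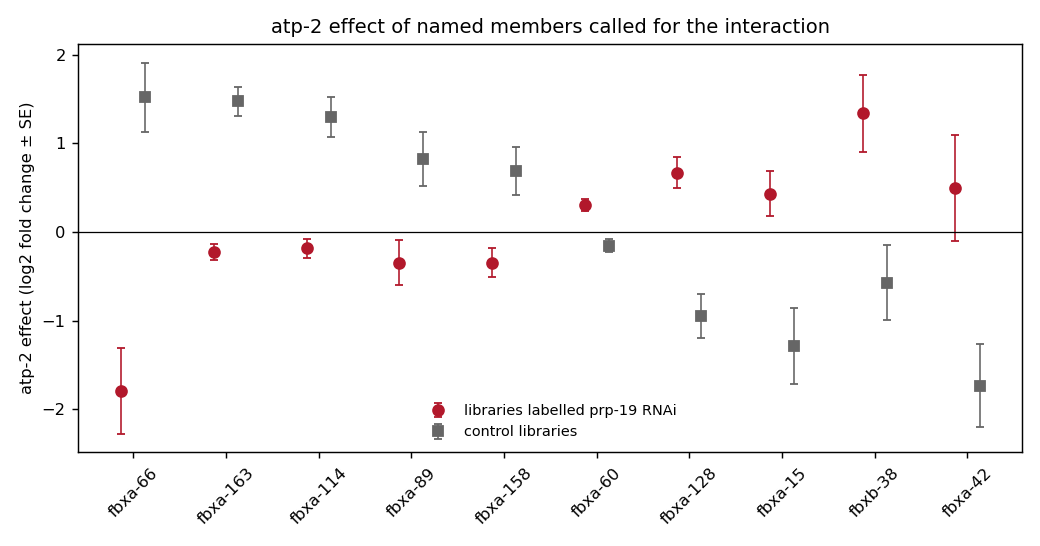
atp-2 effect, as log2 fold change ± SE, of the 10 named members called for the interaction, with circles for libraries labelled prp-19 and squares for control libraries. fbxa-66 shows the widest distance, -1.79 against 1.52, and fbxa-60 the narrowest, 0.31 against -0.15.

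Of the 11 fitted fbxc genes, fbxc-58 and fbxc-52 rose with a prp-19 label both without and with atp-2 RNAi. So was fbxc-44 called, but it is a member only through libraries with that label. It had 11, 13 and 7 counts in libraries labelled prp-19+atp-2, 12, 11 and 7 counts in libraries labelled prp-19, 3, 4 and 6 counts in atp-2 RNAi libraries, and 4, 3 and 1 counts in control libraries, and its scaled levels overlapped between the 2 groups with atp-2 RNAi. The third by level, fbxc-52, had 17.6, 17.7 and 19.6 CPM in libraries labelled prp-19+atp-2, 21.9, 20.01 and 21.4 CPM in libraries labelled prp-19, 11.1, 10.8 and 9.94 CPM in atp-2 RNAi libraries, and 10.7, 9.39 and 7.58 CPM in control libraries. Groups with and without a prp-19 label did not overlap, and its effects were 1.19 (adjusted p = 1.73e-07) without and 0.79 (adjusted p = 1.57e-05) with atp-2 RNAi. Outside the members, fbxc-28 had 6, 1 and 0 counts in libraries labelled prp-19+atp-2, 21, 27 and 8 counts in libraries labelled prp-19, and 0 counts in each of the 6 libraries without a prp-19 label. Likewise fbxc-37 had 1, 0 and 1 counts in libraries labelled prp-19+atp-2, 17, 28 and 9 counts in libraries labelled prp-19, and 0 counts in each of the other 6. These 2 genes were chosen after their values were seen, and most of their counts lay in the 3 libraries labelled prp-19.

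The partners of F-box proteins were read from lists of named genes. Counts of calls on these lists stand beside those of all genes for the prp-19 effect. Of all genes, 30% rose and 28.5% fell without atp-2 RNAi, and 26.5% went each way with it. Of 12 fitted genes of the SCF core (cullin 1, RING protein, Skp1-related proteins and the E2 enzyme ubc-3), 4 rose and 5 fell without and 3 rose and 5 fell with atp-2 RNAi between libraries with and without a prp-19 label. The scaffold gene cul-1 was not called in any comparison, at 52.6 ± 0.445 CPM in libraries labelled prp-19+atp-2, 61.02 ± 3.996 CPM in libraries labelled prp-19, 53.0 ± 1.80 CPM in atp-2 RNAi libraries and 57.3 ± 2.19 CPM in control libraries (SD, n = 3 each). The Skp1-related gene skr-12 had 2.96, 2.99 and 2.27 CPM in libraries labelled prp-19+atp-2, 3.75, 5.03 and 5.20 CPM in libraries labelled prp-19, 4.002, 3.44 and 5.58 CPM in atp-2 RNAi libraries, and 23.9, 29.4 and 28.6 CPM in control libraries. Control libraries alone were high. Its log2 fold changes against control were -2.54 in libraries labelled prp-19 (adjusted p = 1.64e-10) and -2.66 in atp-2 RNAi libraries (adjusted p = 3.76e-10).

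On the CUL-6 list, 2 of 5 genes rose and 2 fell without and 2 rose and 0 fell with atp-2 RNAi. The cullin gene cul-6, scaffold of the ligase that uses FBXA-158, had 36.05, 37.7 and 35.7 CPM in libraries labelled prp-19+atp-2, 36, 37.7 and 32.4 CPM in libraries labelled prp-19, 10.98, 10.6 and 9.13 CPM in atp-2 RNAi libraries, and 14.3, 18.2 and 12.9 CPM in control libraries. As with fbxa-158, each library with a prp-19 label was above each without. The prp-19 effects were 1.23 (SE 0.12, adjusted p = 3.97e-08) without and 1.83 (SE 0.12, adjusted p = 1.6e-10) with atp-2 RNAi. The atp-2 effect on cul-6 in control libraries was -0.56 (adjusted p = 0.00327, lost with library totals). The Skp1-related gene skr-3 rose by 0.53 with atp-2 RNAi (adjusted p = 0.000615) and by 0.31 without it (adjusted p = 0.0234), the second call lost without control replicate 1 or 2 or prp-19 replicate 1 or 2, in a fit of the 6 libraries compared and in DESeq2. The prp-19 effects on skr-4, also on this list, were -0.32 without (adjusted p = 0.00142) and 0.18 with atp-2 RNAi (adjusted p = 0.0566). The gene skr-5 was called in neither comparison. The RING gene rcs-1 fell by 0.38 without atp-2 RNAi (adjusted p = 0.00438), and its change was 0.11 (adjusted p = 0.476) with library totals.

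Among 8 fitted F-box genes of other names, 4 rose and 1 fell without and 3 rose and 1 fell with atp-2 RNAi. One was fog-2, an F-box gene with an FTH domain whose protein acts with GLD-1 in promoting sperm fate in the germline. It had 6.38, 5.98 and 5.07 CPM in libraries labelled prp-19+atp-2, 9.14, 6.31 and 5.72 CPM in libraries labelled prp-19, 1.83, 2.01 and 2.45 CPM in atp-2 RNAi libraries, and 1.27, 1.24 and 0.705 CPM in control libraries. Groups with and without a prp-19 label did not overlap, and the effects were 2.69 (adjusted p = 2e-07) without and 1.47 (adjusted p = 3.94e-05) with atp-2 RNAi. The synaptic F-box gene fsn-1 rose by 1.45 (adjusted p = 5.33e-08) and 1.08 (adjusted p = 7.23e-07). Of 16 fitted germline markers, 8 rose and 0 fell without and 3 rose and 1 fell with atp-2 RNAi. Over all genes, 30% rose and 28.5% fell without it, and 26.5% went each way with it.

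Some markers of other tissues were also called for the prp-19 effect. Of all genes, 58.5% were called without and 53% with atp-2 RNAi. Of 7 intestine markers 1 rose and 4 fell without and 3 rose and 2 fell with atp-2 RNAi. Their sum was 5499 to 5651 CPM in libraries labelled prp-19+atp-2, 3784 to 5995 CPM in libraries labelled prp-19, 6613 to 6718 CPM in atp-2 RNAi libraries and 6621 to 7797 CPM in control libraries. Of 4 pharynx markers 4 rose without and 1 with atp-2 RNAi, with sums of 291.7 to 390.5 CPM, 275.3 to 303.0 CPM, 211.4 to 260.8 CPM and 89.9 to 173.8 CPM in the same order of groups. Of 5 hypodermis markers 3 rose without and 2 with atp-2 RNAi, with sums of 63.2 to 65.3 CPM, 65.6 to 71.3 CPM, 43.5 to 54.4 CPM and 52.1 to 58.4 CPM. Of 6 neuron markers 2 rose without and 2 fell with atp-2 RNAi, and of 5 body wall muscle markers 0 were called. No marker of these 5 lists was at 0 in all libraries, and their part in the members' results was not tested.

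Of 13 fitted genes for neddylation and the COP9 signalosome, which switch cullin ligases on and off, 4 rose and 1 fell without and 2 rose and 3 fell with atp-2 RNAi between libraries with and without a prp-19 label. Of 6 genes of other cullin ligases (cul-2, cul-3, cul-4, cul-5, rbx-2 and mel-26), 0 rose and 3 fell in either comparison. The genes cul-2 and cul-5 fell in both, rbx-2 only without and mel-26 only with atp-2 RNAi. Of 13 fitted bath genes and 8 fitted btb genes, which encode adaptor proteins of another cullin ligase, 4 and 1 rose and 1 and 2 fell without atp-2 RNAi, and 4 and 3 rose and 2 and 3 fell with it. The shares of all genes called were 58.5% without and 53% with atp-2 RNAi. Median log2 fold changes without and with atp-2 RNAi were 0.05 and -0.07 for the SCF core, 0.31 and 0.18 for the CUL-6 list, 0.32 and 0.32 for the other F-box genes, and 0.12 and 0.14 for neddylation and COP9. They were -0.26 and -0.27 for the genes of other cullin ligases, 0.44 and 0.36 for the bath genes, -0.21 and 0.16 for the btb genes, and 0.72 and 0.35 for the germline markers, against 0.0637 and 0.0269 over all genes.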

How the data were processed

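The authors deposited 1 table of raw read counts per gene, whole numbers for 45132 genes in 12 libraries. The submitters' processing notes name FastQC, STAR 2.7.5c, HISAT2 2.1.0, R 4.0.5 and DESeq2 with the builds ce11 and WBcel235, without saying what each did, and they give no strand setting or treatment of multiply matching reads. Groups came from the sample titles. Coordinates, exons and overlaps came from the Ensembl annotation of WBcel235, in which all 114 members matched. Members and gene lists were chosen with earlier results of these data known.

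Counts were fitted with edgeR 4.0.16 in R 4.3.3 (filterByExpr, 12850 genes, TMM, quasi-likelihood, 1 coefficient per group, 8 residual degrees of freedom, no replicate block), tested first on simulated data. Adjusted p-values come from this fit over all genes unless DESeq2 1.42.0 is named. SE is the absolute log2 fold change over the square root of F. Per-kilobase values divide CPM by exon length. Replicates differed beyond sampling noise in every pair (chi-square per degree of freedom 1.44 to 43).

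Named members were the 4 highest and 4 lowest called members of each comparison with a mean of at least 1 CPM, the 3 highest per kilobase in each family, and fbxa-75 and fbxa-158. Alternatives were RLE factors, library totals with and without vitellogenin genes, other filters, a replicate block, the 6 libraries of a pair, DESeq2, a 2-fold minimum, and each library left out.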

Additional observations from a re-analysis of the deposited data

Results flagged for a closer look

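The fall of atp-2 mRNA differed between libraries labelled prp-19 and control libraries, as given above. By the interaction test, the atp-2 effect also differed for 20 members, among them fbxc-19 and fbxa-42, whose calls the count rule favoured. Among those named above, the differences on the log2 scale (libraries labelled prp-19 minus control libraries) were -3.31 for fbxa-66, -1.70 for fbxa-163, -1.48 for fbxa-114, 1.71 for fbxa-15, 1.62 for fbxa-128 and 0.46 for fbxa-60. The other named members were fbxa-42 at 2.23, fbxb-38 at 1.91 (adjusted p = 0.0345), fbxa-89 at -1.17 (adjusted p = 0.0454) and fbxa-158 at -1.03 (adjusted p = 0.0281). The value of fbxa-42 is a description, because its control level made it a member.

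The calls of these last 4 depend on single libraries and on other settings. That of fbxa-42 was lost without control replicate 1 or 2, prp-19 replicate 1, or any 1 of the atp-2 or prp-19+atp-2 replicates, and with library totals, whether or not vitellogenin genes were counted. This gene is a member through its control level. That of fbxb-38 was lost without control replicate 2 or 3, prp-19 replicate 1, prp-19+atp-2 replicate 1 or 3, or any 1 of the atp-2 replicates, and with library totals. That of fbxa-158 was lost without control replicate 2 or 3, atp-2 replicate 1, prp-19 replicate 1 or 2, or prp-19+atp-2 replicate 3, and in DESeq2. The gene fbxa-89 had 2.25, 2.34 and 2.37 CPM in libraries labelled prp-19+atp-2, 2.35, 3.85 and 2.60 CPM in libraries labelled prp-19, 2.97, 2.73 and 2.45 CPM in atp-2 RNAi libraries, and 1.27, 1.24 and 2.12 CPM in control libraries. Its call was lost without control replicate 1 or 2, prp-19 replicate 2, or any 1 of the atp-2 or prp-19+atp-2 replicates, and also in DESeq2 and with no low-count filter. The call of fbxa-15 was lost without control replicate 3 or atp-2 replicate 3 and with library totals, which also ended that of fbxa-60.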

How the results depend on the processing

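Counts of called members kept within 1.5 times the stated ones for most alternatives. The exceptions were a 2-fold minimum, which left 25 members without and 30 with atp-2 RNAi for the prp-19 effect, 3 for the atp-2 effect in libraries labelled prp-19, 13 in control libraries and 13 for the interaction. For the atp-2 effect in libraries labelled prp-19 (11 members), library totals gave 5 and a fit of its 6 libraries 3, and DESeq2 gave 12 for the interaction (20 members). Leaving out 1 library gave 47 to 58 and 45 to 57 members for the prp-19 effects, 4 to 21 and 21 to 31 for the atp-2 effects in libraries labelled prp-19 and in control libraries, and 10 to 28 for the interaction. The interaction count was 10 without control replicate 2 or atp-2 replicate 1, 11 without atp-2 replicate 3 or prp-19 replicate 2, 12 without atp-2 replicate 2 or prp-19+atp-2 replicate 1 or 2, and 13 without control replicate 3. Same-numbered libraries did not deviate together (correlations of -0.0403 to 0.12), so the numbers were not taken as pairs. With the replicate block the counts were 56, 53, 8, 29 and 17 in the order of the comparisons above. Among changes of single genes, 1 alternative value turned sign, rcs-1 at 0.112 with library totals, while 195 were no longer called, 68 became called and 3573 kept their side. The cause was not tested. Low counts are 1 limit, with 36.9 counts per library for the median member.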
